A study of Mus musculus with 6 samples.

Results

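The genes described here encode the proteins that carry a signal from a G protein-coupled receptor into the cell and switch it off again. They were chosen by gene symbol and comprise the alpha, beta and gamma subunits of heterotrimeric G proteins, the regulators of G protein signalling (RGS), the adenylyl cyclases, the G protein-coupled receptor kinases (GRKs) and the arrestins Arrb1 and Arrb2, each with at least 10 raw counts in 3 or more libraries. The symbols of 72 of the 35976 listed genes matched, and 65 of these met the count rule. The 65 members were 14 G alpha, 5 G beta and 10 G gamma subunits, 18 RGS genes, the 2 RGS anchors Rgs7bp and Rgs9bp, 10 adenylyl cyclases, 4 GRKs and 2 arrestins. Just inside the rule, the reads of Gnat2 numbered 10, 4 and 14 with vehicle (replicates 1, 2 and 3) and 12, 12 and 9 with HC-HA/PTX3. Just outside it, those of Rgs18 numbered 5, 6 and 32 with vehicle and 0, 3 and 11 with HC-HA/PTX3, so that 2 libraries reached 10. The other matching genes below the rule were Gng13, Gnat1, Gnat3, Gngt1, Rgs21 and Rgs13, and Rgs13 had no count in any library.

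RNA was sequenced from 6 cultures of sensory neurons of the dorsal root ganglion (DRG), taken from lumbar ganglia of wildtype C57BL/6 mice of both sexes, aged 2 to 3 months. No sorting of neurons is described. At 24 h after plating, 3 cultures received vehicle and 3 received 15 µg/mL HC-HA/PTX3, a matrix complex purified from human amniotic membrane, for a further 24 h. The sources used here do not give the number of mice behind each culture, so the p-values refer to these cultures and not to mice. In fits that use the replicate number, they measure the spread that remains once differences between replicate numbers are removed. Only in the fit without it do they measure the full spread between cultures of a group. Libraries held 42516054, 42617496 and 54117547 counts for vehicle replicates 1, 2 and 3, and 37998071, 37434266 and 38420247 counts for the HC-HA/PTX3 replicates. Levels are given as library-scaled counts (CPM) after normalization by edgeR's trimmed mean of M-values (TMM), where 1 CPM corresponded to between 37.1 and 56.0 counts. A member of which no read was drawn could still have had up to 0.0808 CPM, the equivalent of 3 counts, and this floor covers counting error only.

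A ligand-bound receptor loads GTP onto the alpha subunit, which separates from the beta-gamma pair, and both then act on effectors. Alpha subunits of the Gs class stimulate adenylyl cyclase, those of the Gi/o class inhibit it, and those of the Gq/11 class act through phospholipase C beta. In sensory neurons the opioid receptors couple to Gi/o, whose beta-gamma pairs also inhibit voltage-gated calcium channels, while RGS proteins speed GTP hydrolysis on the alpha subunit and GRKs with arrestins desensitise the receptor.

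Of the 18 RGS members, 8 lay on chromosome 1 of mm10, among them the neighbours Rgs8 (153653025 to 153700323) and Rgs16 (153740349 to 153745468), which were 40.03 kb apart, and the neighbours Rgs5 and Rgs4 (169741477 to 169747642), which were 45.66 kb apart. Rgs2 (143999338 to 144004161) lay 238.1 kb from Rgs1. The sequences around the start sites of Rgs2, Rgs8, Rgs16 and Rgs4 are shown because these were the 4 RGS genes of this chromosome with an adjusted p-value under 0.05 between the treatments, as described further on. Each runs from 250 bases before to 50 bases after a RefSeq start site of GRCm38.p6, on the strand of the gene, and capitals mark the letters TGACG or CGTCA. These letters are the same 5 bases read on either strand and form the core of the cAMP response element, the motif of transcription factors of the CREB family.
Rgs2, chr1:144004100-144004399, minus strand: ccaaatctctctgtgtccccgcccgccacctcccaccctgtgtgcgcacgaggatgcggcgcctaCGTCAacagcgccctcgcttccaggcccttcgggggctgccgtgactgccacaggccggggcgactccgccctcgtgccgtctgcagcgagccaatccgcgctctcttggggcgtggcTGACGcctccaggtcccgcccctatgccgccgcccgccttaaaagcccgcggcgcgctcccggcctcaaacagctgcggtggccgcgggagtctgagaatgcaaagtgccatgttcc
Rgs8, chr1:153652787-153653086, plus strand: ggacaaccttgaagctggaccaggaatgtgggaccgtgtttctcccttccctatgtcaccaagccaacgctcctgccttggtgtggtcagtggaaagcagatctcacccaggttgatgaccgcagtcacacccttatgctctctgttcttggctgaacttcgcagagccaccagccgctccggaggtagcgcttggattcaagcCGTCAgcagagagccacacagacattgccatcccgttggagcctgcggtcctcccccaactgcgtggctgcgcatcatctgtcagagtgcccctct
Rgs16, chr1:153740103-153740402, plus strand: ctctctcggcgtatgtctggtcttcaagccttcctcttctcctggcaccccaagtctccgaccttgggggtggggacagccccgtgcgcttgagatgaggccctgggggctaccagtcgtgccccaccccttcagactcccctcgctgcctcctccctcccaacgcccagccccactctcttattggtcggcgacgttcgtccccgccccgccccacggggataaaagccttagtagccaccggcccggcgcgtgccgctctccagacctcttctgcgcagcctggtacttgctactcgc
Rgs4, chr1:169747593-169747892, minus strand: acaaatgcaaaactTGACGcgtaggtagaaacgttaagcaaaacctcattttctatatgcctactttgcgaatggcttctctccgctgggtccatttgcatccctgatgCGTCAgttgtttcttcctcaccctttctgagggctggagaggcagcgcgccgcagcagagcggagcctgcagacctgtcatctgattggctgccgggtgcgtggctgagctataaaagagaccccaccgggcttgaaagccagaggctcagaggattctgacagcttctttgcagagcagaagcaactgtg
The letters began at positions -185 and -67 from the start site in Rgs2, at -46 in Rgs8 and at -236 and -141 in Rgs4, and were not in the window of Rgs16. For Rgs8 the table lists 3 windows, of which the one nearest to the annotated gene start is shown. RefSeq windows were found for 48 of the 65 members. TGACG or CGTCA was in 16 of their 65 windows (24.6%), compared with 6837 of 32851 windows of the whole table (20.8%). The full palindrome TGACGTCA, which contains both, was in 0 of the 65 windows and in 588 of the 32851 (1.79%). Such a match describes the letters of these windows only.

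**Figure D1:**
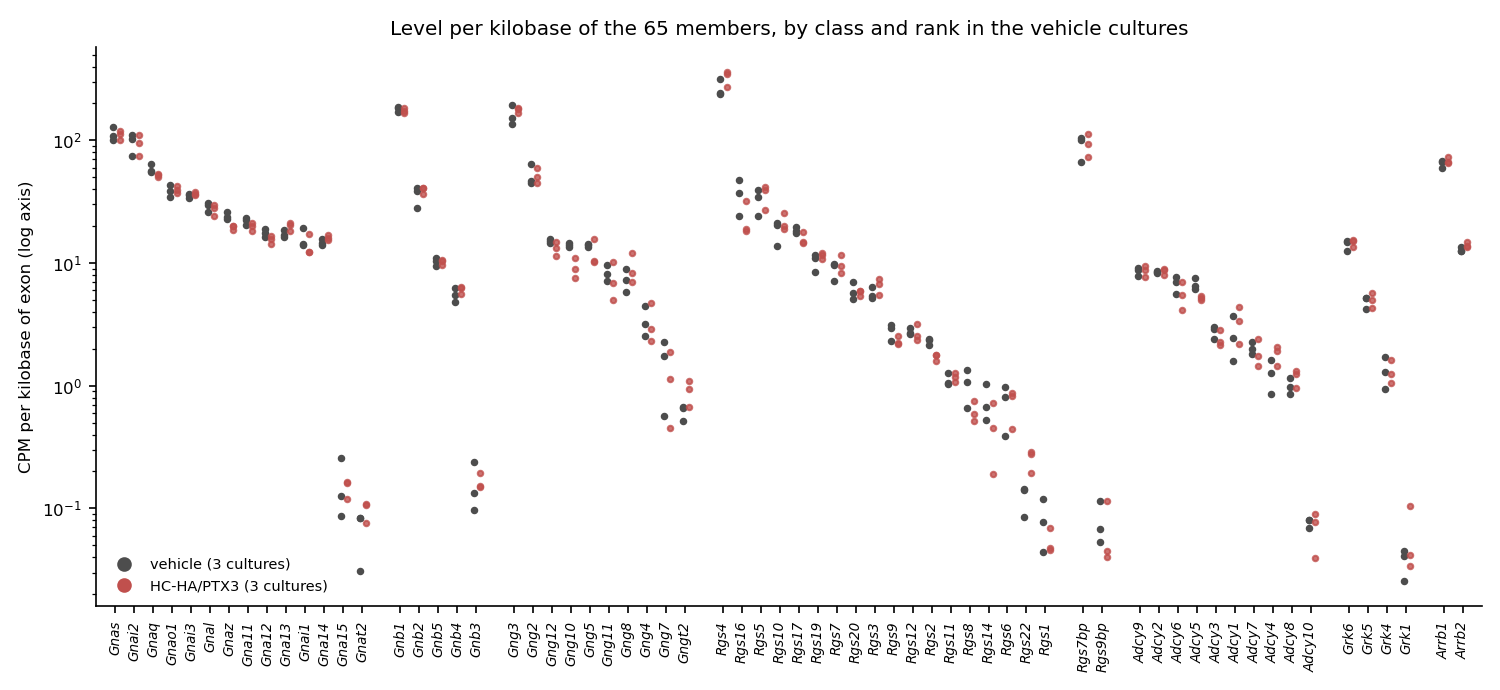
Levels of the 65 members in TMM-normalized CPM per kilobase of exon on a log axis, with each of the 3 vehicle cultures (grey) and 3 HC-HA/PTX3 cultures (red) as a point, ordered within each class by the vehicle mean. Rgs4, Gnb1, Gng3, Gnas and Gnai2 head the columns of RGS, G beta, G gamma and, for the last pair, G alpha genes.

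Levels were compared between members only per kilobase of exon, which takes all annotated exons of a gene together and so understates genes with many alternative exons. On that scale the vehicle cultures held 113 ± 14.2 CPM per kilobase of Gnas, which encodes the alpha subunit of Gs, and 95.9 ± 19.3 of Gnai2, the leading inhibitory subunit (SD, n = 3 each). Gnaq, the alpha subunit of Gq, followed at 58.4 ± 4.86 and Gnao1, the Go subunit abundant in neurons, at 38.7 ± 4.34. Gnas and Gnai2 did not differ beyond their spread. The retinal transducin Gnat2 and Gna15, a subunit of blood cells, stood at 0.0660 ± 0.0302 and 0.157 ± 0.0892 CPM per kilobase, near the limit of what these libraries could measure.

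A single gene held most of the summed per-kilobase level in several classes. In the vehicle cultures Gnb1 made up 77.7% ± 2.82 of the G beta level, Gng3, a gamma subunit of neurons, 57.7% ± 2.38 of the G gamma level and Rgs4 63.9% ± 4.37 of the RGS level. Grk6 made up 69.4% ± 4.97 of the level of the 4 GRK members and Arrb1 83.5% ± 0.692 of the level of the 2 arrestins (SD, n = 3 each). The adenylyl cyclases were more even, since Adcy9 and Adcy2 accounted for 21.3% ± 1.91 and 21.1% ± 0.179, Adcy6 and Adcy5 for 16.8% ± 2.72 and 16.7% ± 1.60 (SD, n = 3 each). The GRK share leaves out Adrbk1 and Adrbk2, the older symbols of the kinases GRK2 and GRK3, which the symbol patterns do not cover. In each vehicle culture Adrbk1 was higher than Grk6 in CPM, over a similar exon length (4.476 and 4.202 kb). Grk6 therefore led the 4 members but not the GRK genes with Adrbk1 included.

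**Figure D2:**
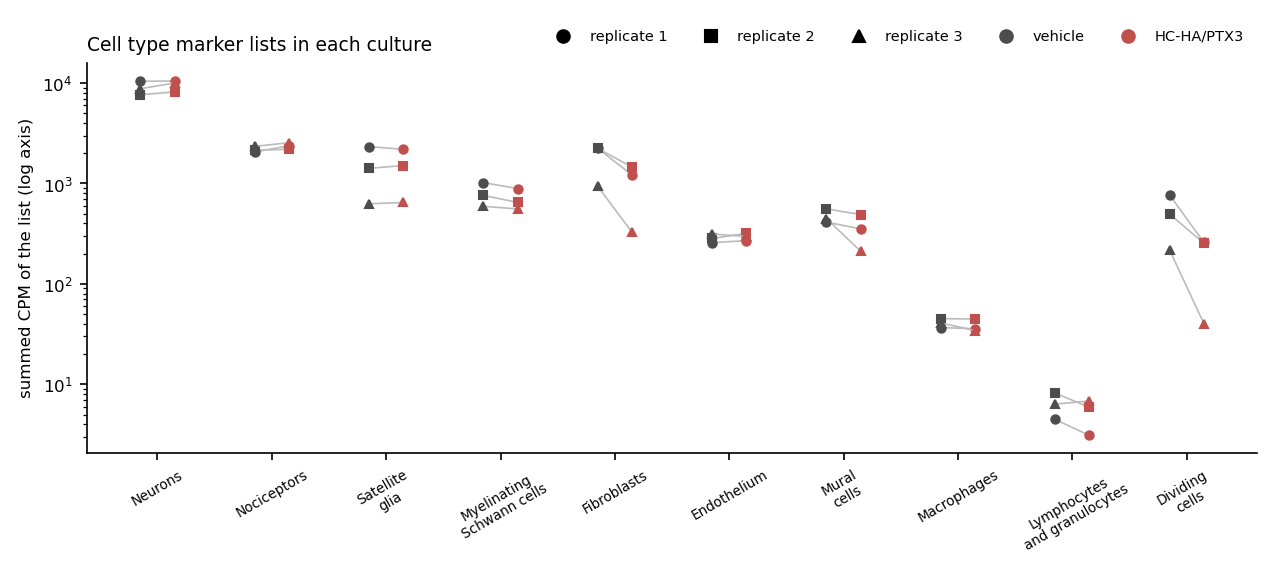
Summed TMM-normalized CPM of each cell type marker list on a log axis, with vehicle cultures in grey, HC-HA/PTX3 cultures in red, symbols for the replicate number and lines joining same-numbered cultures. Among the lists lower in every treated culture than in the vehicle culture of the same number were those of dividing cells, fibroblasts, mural cells and macrophages, and that of satellite glia differed mainly between replicate numbers.

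The label of DRG neurons was checked against marker lists. The 10 neuronal markers summed to 10424, 7617 and 8779 CPM in vehicle replicates 1, 2 and 3 and to 10449.7, 8169.99 and 9998 CPM after HC-HA/PTX3, with Nefl highest. The 8 nociceptor markers, led by Scn10a, summed to 2055, 2146 and 2337 CPM and to 2373, 2187 and 2545 CPM, and 2 of them, Tac1 and Mrgprd, were called higher, by the rule given with the comparison, at log2 fold changes of 1.005 and 0.62. By that rule 3.32 percent of all tested genes were called higher. Other cells were also present, since 9 satellite glia markers, led by Apoe, summed to 2327, 1414 and 627 CPM with vehicle and 2186, 1508 and 646 CPM with HC-HA/PTX3, and 7 fibroblast markers, led by Col3a1, to 2235, 2229 and 937 CPM and 1214, 1456 and 326 CPM. The 7 markers of lymphocytes and granulocytes summed to at most 8.17 CPM in any library, and 2 of them, Cd3e and Nkg7, were at 0 in at least 1 library. The members were therefore measured in a mixture of neurons with glia and fibroblasts, in which fewer cells of a type and less RNA per cell cannot be told apart.

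Treatment with HC-HA/PTX3 was associated with calls in 6 of the 65 members, 2 higher and 4 lower. The higher genes were Rgs22, at a log2 fold change of 1.06, and Adcy4, at 0.56. The lower genes were Rgs14, Rgs8, Rgs16 and Gng10, which fell by 0.78, 0.70, 0.64 and 0.63 on the log2 scale. A call required a Benjamini-Hochberg adjusted p-value under 0.05 in edgeR's quasi-likelihood test over all 18277 tested genes and an absolute log2 fold change over 0.5, in a fit that compared cultures within the same replicate number. The 6 calls were 9.23% of the members, and 8.70 percent of all tested genes were called by the same rule, so the share lay near the background. In each direction, 2 of 65 higher and 4 of 65 lower compare with 3.32 and 5.38 percent of all tested genes. These percentages are 607 and 984 genes in edgeR, where DESeq2 called 360 higher and 851 lower, limma-voom 607 and 962, and ComBat-seq with limma 1012 and 1115. Without the replicate number in the model, edgeR called 0 members and 0 of all tested genes (0.00 percent), while 6 members and 2089 genes (11.4 percent) had an unadjusted p-value under 0.05, and the smallest adjusted p-value of a member was 0.285. No other tool was run without the replicate number in some form.

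**Figure D3:**
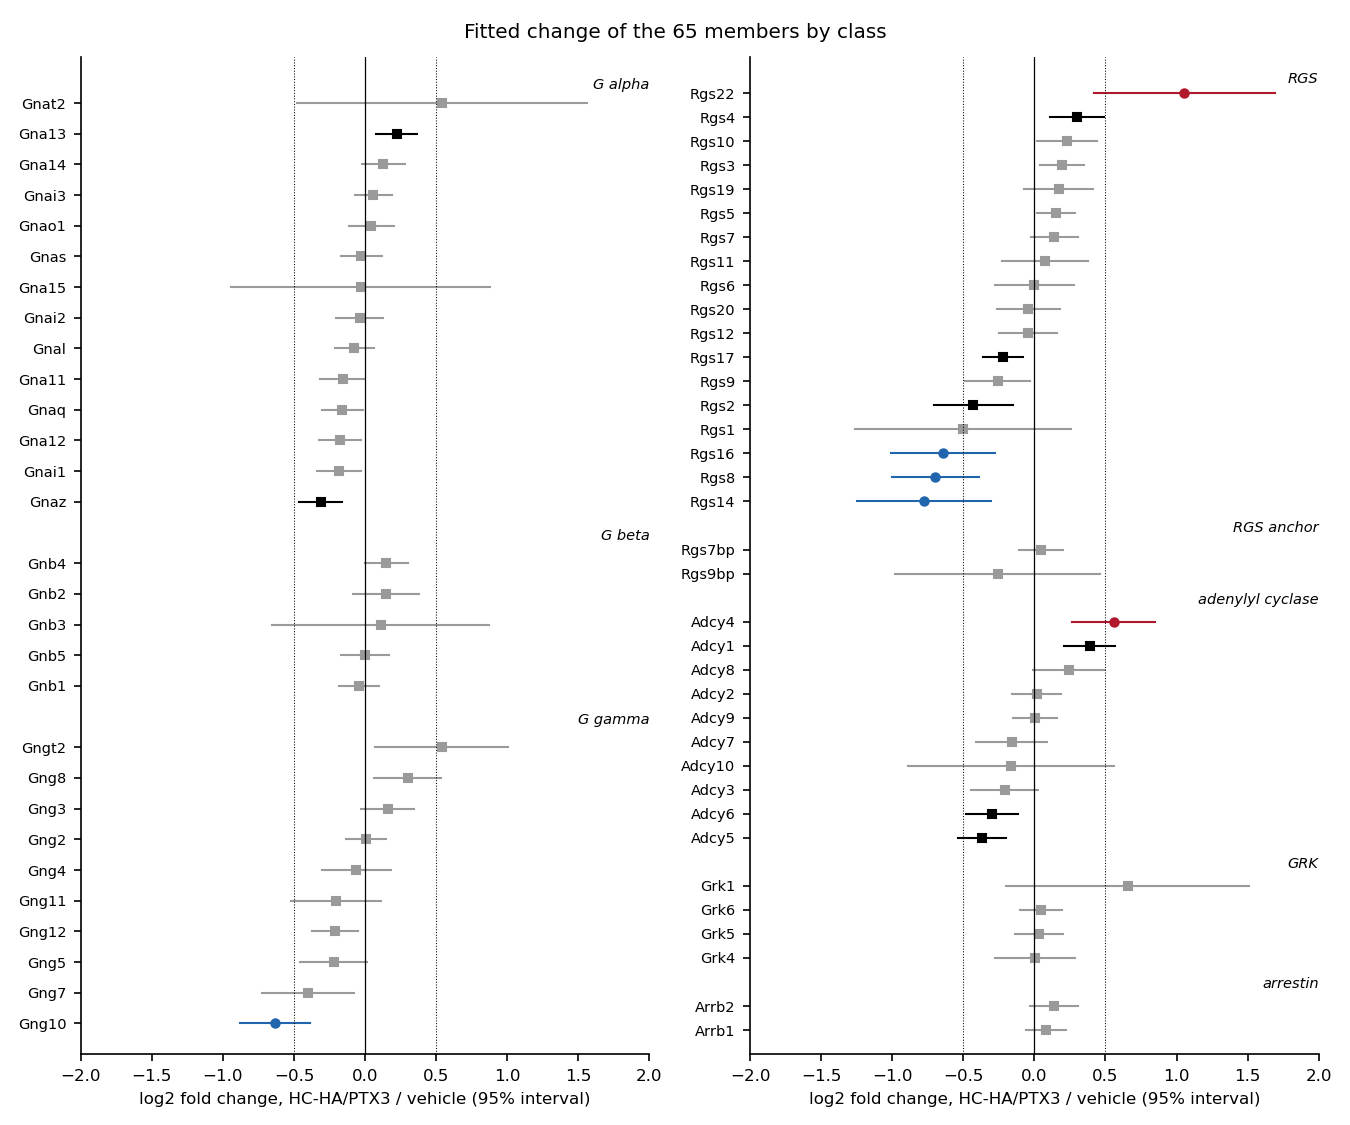
Fitted log2 fold change of HC-HA/PTX3 over vehicle for the 65 members with 95% intervals, by class, with dotted lines at the threshold of 0.5 in either direction. Red and blue circles are the 2 members called higher and the 4 called lower, black squares the other 8 members with an adjusted p-value under 0.05, and grey squares the rest.

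The median log2 fold change of the members was 0.00, beside -0.01 for all tested genes, with 33 members fitted higher and 32 lower, and 55 of 65 had a fitted change smaller than 0.5 in either direction. By the adjusted p-value alone, without the fold-change threshold, 14 members passed, 5 higher and 9 lower (21.5%), compared with 19.2 percent of all tested genes. The 3 treated cultures lay wholly above or below the 3 vehicle cultures in 8 members (12.3%), 3 higher and 5 lower, compared with 18.0 percent of all tested genes, 9.44 percent higher and 8.57 percent lower. In all 3 pairs of same-numbered cultures, 17 members were higher and 19 lower with HC-HA/PTX3. Of the 18277 tested genes, 4609 were higher and 5242 lower in all 3 pairs, so agreement of the pairs was common. As the plot of fitted changes by class shows, RGS had 4 calls among 18 genes (22.2%, beside 8.70 percent of all tested genes), and the adenylyl cyclases and the G gamma subunits had 1 call each among 10. In edgeR, 7 RGS genes (38.9%), 4 cyclases (40.0%) and 1 G gamma gene (10.0%) passed the adjusted p-value alone, beside 19.2 percent of all tested genes. An unadjusted p-value under 0.05 was found for 11 RGS genes, 4 cyclases and 5 G gamma genes, beside 33.2 percent of all tested genes. DESeq2 called 2 of the RGS genes, and without the cultures numbered 1 edgeR called 1 RGS gene and 1 G gamma gene. Of all tested genes, 6.63 and 4.74 percent were called in these 2 settings. The G alpha, G beta, GRK, anchor and arrestin classes had 0 calls in edgeR, DESeq2, limma-voom and ComBat-seq followed by limma, and at an unadjusted p-value under 0.05 edgeR gave 5 of the 14 G alpha subunits and 0 of the 13 genes of the other classes named. In the same fit with the replicate number, 33.2 percent of all tested genes had an unadjusted p-value under 0.05.

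The Gi/o arm, through which opioid receptors signal, was not called in any subunit. Its 6 measured alpha subunits were fitted at a median of 0.00 on the log2 scale, and 2 of them, Gnaz and Gnai1, had an unadjusted p-value under 0.05 in edgeR, as had 33.2 percent of all tested genes. Gnai2, on chromosome 9 from 107614125 to 107635367, was measured at 422, 384 and 281 CPM in vehicle replicates 1, 2 and 3 and at 359.9, 414 and 282 CPM in the HC-HA/PTX3 replicates. The groups overlapped throughout, and replicate 3 was lowest under both treatments. Its fitted log2 fold change was -0.04 (95% interval -0.20 to 0.12; edgeR, adjusted p = 0.755), and it was 0.06 when the cultures numbered 1 were left out.

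Gnao1, on chromosome 8 from 93809966 to 93969388, was at 476, 380.4 and 428 CPM with vehicle and at 435, 414 and 471 CPM with HC-HA/PTX3. Gnai3, on chromosome 3 from 108107280 to 108146146, was at 111, 119 and 116 CPM and at 118, 123 and 119.9 CPM. For Gnao1 the treated values lay within the range of the vehicle values, and for Gnai3 the treated culture was the higher one in 3 of 3 pairs although the groups overlapped. The fitted log2 fold changes were 0.04 (95% interval -0.11 to 0.20) and 0.06 (-0.07 to 0.19), and their adjusted p-values from edgeR were 0.712 and 0.538. The intervals of Gnai2, Gnao1 and Gnai3 all lay inside the threshold of 0.5 in either direction. Gnai1, on chromosome 5 from 18265135 to 18360355, was at 60.1, 44.6 and 44.0 CPM with vehicle and at 54.0, 38.8 and 38.2 CPM with HC-HA/PTX3. Replicate 1 was highest in both groups and each treated culture was below its vehicle partner, with a log2 fold change of -0.18 (edgeR, adjusted p = 0.0893).

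Gnaz encodes the alpha subunit of Gz, the Gi/o member that pertussis toxin does not inactivate, and lies on chromosome 10 from 74967177 to 75016907. It was measured at 94.9, 82.7 and 86.5 CPM in the vehicle cultures and at 71.8, 73.0 and 67.5 CPM in the HC-HA/PTX3 cultures. Every treated culture was below every vehicle culture. The log2 fold change was -0.31 (SE 0.07, 95% interval -0.47 to -0.16; edgeR, adjusted p = 0.0113), which passed the adjusted p-value but not the fold-change threshold, so Gnaz was not called. The adjusted p-value from edgeR was 0.0693 and 0.0501 when vehicle replicates 1 and 3 were left out in turn, and 0.0755 and 0.0701 when their treated partners were. Without the replicate number in the model the value was -0.32 with an adjusted p-value of 0.305 from edgeR. The gene overlaps Rsph14 on the opposite strand, which had 1 to 4 counts per library.

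The alpha subunit classes were also compared as shares of their summed level. Gi/o subunits made up 43.5% ± 2.18 of the summed per-kilobase G alpha level with vehicle and 43.7% ± 2.98 with HC-HA/PTX3 (SD, n = 3 each; two-sided exact permutation test, p = 1). Within the Gi/o level the share of Gnai2 was 45.3% ± 4.77 and 45.5% ± 5.04, and that of Gnaz 11.6% ± 1.03 and 9.65% ± 0.418 (SD, n = 3 each). The 3 treated values of the Gnaz share lay below the 3 vehicle values, giving p = 0.1 in the two-sided exact permutation test, the smallest that 3 cultures against 3 allow. This test does not use the replicate numbers and could not have reached 0.05 for any share. The Gs subunits Gnas and Gnal held 29.4% ± 1.80 and 29.7% ± 2.54 of the G alpha level, the Gq/11 subunits 19.8% ± 1.03 and 19.0% ± 0.589, and the G12/13 subunits 7.26% ± 0.710 and 7.67% ± 0.218 (SD, n = 3 each). The Gq/11 share was lower with HC-HA/PTX3 in 3 of 3 pairs, at 18.7%, 19.9% and 20.8% with vehicle and 18.5%, 18.8% and 19.6% with HC-HA/PTX3.

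**Figure D4:**
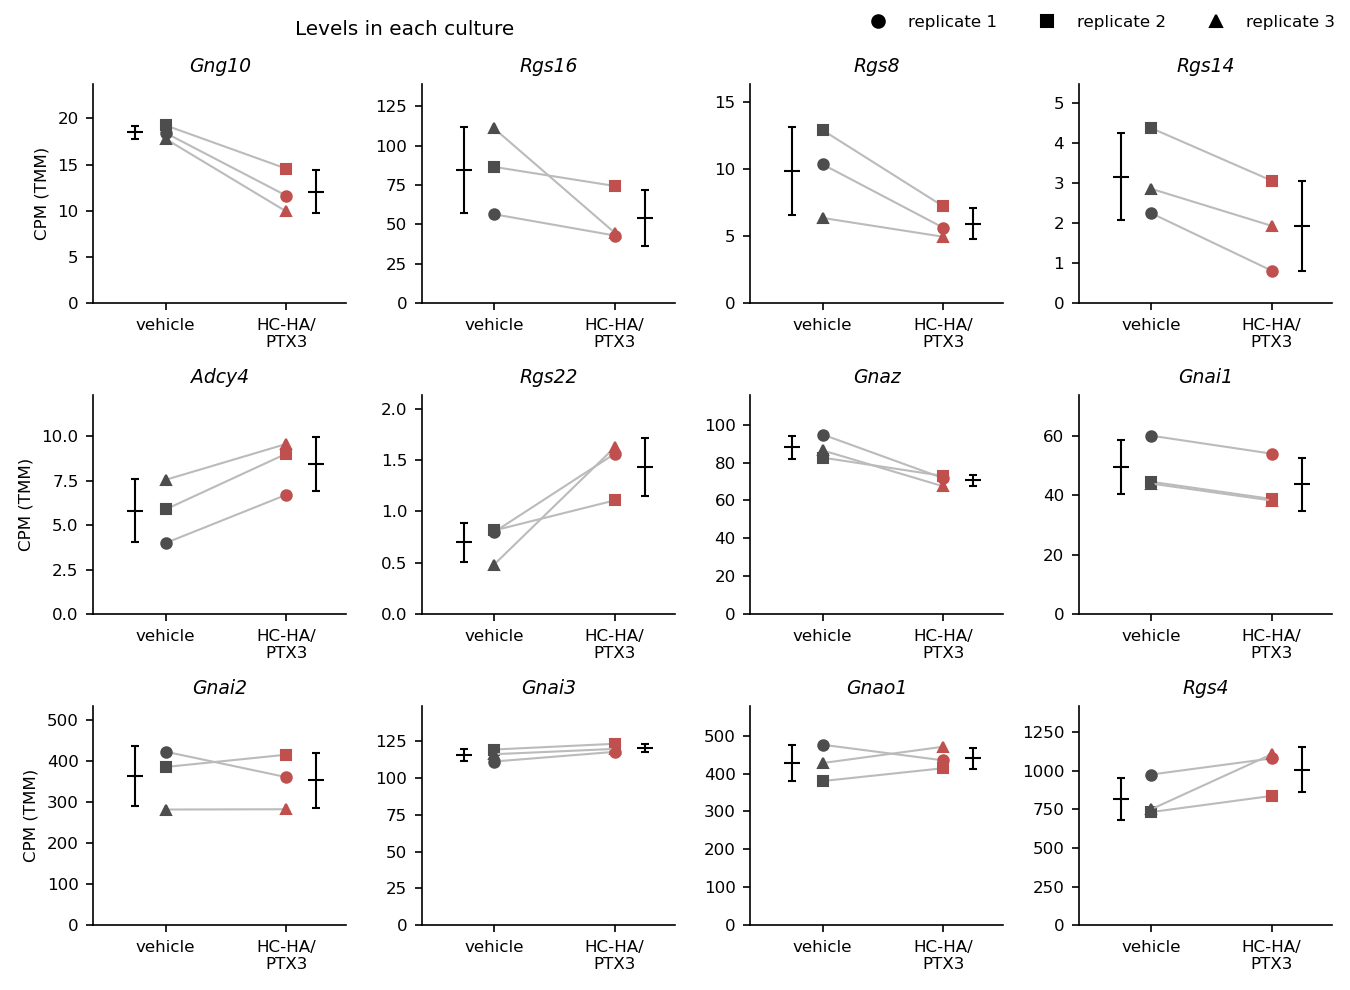
TMM-normalized CPM of 12 members in each culture, with symbols for the replicate number, lines joining same-numbered cultures, and the mean with SD of each group (n = 3) beside the points. Gng10, Rgs22 and Gnaz separate the groups, whereas Rgs16, Rgs8, Rgs14, Adcy4, Rgs4, Gnai1, Gnai2, Gnai3 and Gnao1 overlap.

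Among the other alpha subunits, Gnas was at 1442, 1132 and 1224 CPM with vehicle and at 1342, 1119 and 1260.1 CPM with HC-HA/PTX3, a log2 fold change of -0.03 whose sign turned to 0.01 under upper-quartile scaling. Gna13, of the G12/13 class, was at 105, 109 and 118 CPM and at 132, 118 and 137 CPM. Each treated culture exceeded its vehicle partner, and the groups overlapped by a narrow margin at the treated replicate 2. Its log2 fold change was 0.22 (SE 0.07; edgeR, adjusted p = 0.0385), under the fold-change threshold. For its relative Gna12 the value was -0.18 (edgeR, adjusted p = 0.0872). Gnaq, of the Gq/11 class, was at 396, 340 and 348 CPM with vehicle and at 326, 312 and 330 CPM with HC-HA/PTX3. The groups of Gnaq did not overlap, and its log2 fold change was -0.16 (edgeR, adjusted p = 0.115). Of the 4 Gq/11 subunits, 1 was fitted higher and 3 lower, and 0 were called. Fitted changes of the 14 alpha subunits ran from -0.31 for Gnaz to 0.54 for Gnat2, whose 95% interval was -0.48 to 1.56. Gnat2 was at 0.11 without vehicle replicate 2 and 0.93 without vehicle replicate 3.

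The G beta subunits were not called. Gnb1, the most abundant per kilobase, was at 783, 726 and 798 CPM with vehicle and at 734, 719.9 and 786 CPM with HC-HA/PTX3. The treated culture was lower in each pair, by less than the spread between replicates, and the log2 fold change was -0.04 (95% interval -0.18 to 0.10; edgeR, adjusted p = 0.682). The 5 fitted changes ran from -0.04 for Gnb1 to 0.15 for Gnb4, with a median of 0.11. Gnb5, the beta subunit that pairs with the RGS proteins Rgs6, Rgs7, Rgs9 and Rgs11, had a log2 fold change of -0.00 (-0.0031).

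Gng10, a broadly expressed gamma subunit, was called lower. It lies on chromosome 4 from 59035088 to 59041903 and was measured at 18.4, 19.3 and 17.8 CPM in vehicle replicates 1, 2 and 3 and at 11.6, 14.6 and 9.93 CPM in the HC-HA/PTX3 replicates. All treated cultures were below all vehicle cultures, and the vehicle values lay close together. Gng10 fell by 0.63 on the log2 scale (SE 0.11, 95% interval -0.88 to -0.39; edgeR, adjusted p = 0.00406), lower in 3 of 3 pairs. The annotation places a read-through gene that joins it with its neighbour Dnajc25 on the same strand. Dnajc25 itself had a log2 fold change of -0.34 (edgeR, adjusted p = 0.0666), and how reads shared by overlapping genes were assigned is not stated.

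The remaining gamma subunits were not called. Gngt2 was at 1.22, 1.26 and 0.964 CPM with vehicle and at 1.75, 2.03 and 1.27 CPM with HC-HA/PTX3. The treated cultures all exceeded the vehicle cultures, the lowest of them by a narrow margin. Its log2 fold change was 0.54 (SE 0.21; edgeR, adjusted p = 0.102), and after ComBat-seq the same gene was called at 0.53 (limma, adjusted p = 0.0049). That procedure made 134 false calls beside 116 true ones in counts simulated with changes of 0.7 on the log2 scale. Gng3, the most abundant gamma gene per kilobase, was at 319, 221 and 249.9 CPM and at 296, 276 and 301 CPM, a log2 fold change of 0.16 (edgeR, adjusted p = 0.215) with overlapping groups. The value for Gng3 depended on the cultures used, since in edgeR it was 0.30 without vehicle replicate 1 (adjusted p = 0.0212) or its treated partner (adjusted p = 0.0250), and 0.07 without vehicle replicate 2 (adjusted p = 0.697). Gng7, singled out after its values were seen, was at 8.54, 6.59 and 2.13 CPM with vehicle and at 7.17, 4.30 and 1.70 CPM with HC-HA/PTX3. In both groups its replicate 3 was the lowest. Each treated culture was below its partner, with a log2 fold change of -0.40 (edgeR, adjusted p = 0.0836).

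Rgs4 was the RGS gene of highest level per kilobase, at 265 ± 43.8 CPM per kilobase with vehicle and 326 ± 48.1 with HC-HA/PTX3 (SD, n = 3 each). It belongs to the small RGS proteins that act on Gi/o and Gq alpha subunits. In CPM it was at 977, 733 and 751 with vehicle and at 1082, 838 and 1109 with HC-HA/PTX3. Each treated culture was above its partner, most of all in replicate 3, and the groups overlapped. The log2 fold change of 0.30 (SE 0.08; edgeR, adjusted p = 0.0336) passed the adjusted p-value but not the fold-change threshold. In edgeR it was 0.17 (adjusted p = 0.204) without vehicle replicate 3, 0.18 (adjusted p = 0.172) without the treated replicate 3 and 0.35 (adjusted p = 0.110) without vehicle replicate 2.

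The neighbours Rgs16 and Rgs8, small RGS proteins of the same family, were both called lower. Rgs16 was at 56.4, 86.5 and 111 CPM in vehicle replicates 1, 2 and 3 and at 42.9, 74.3 and 44.7 CPM in the HC-HA/PTX3 replicates. The groups overlapped, and the gap between partners was widest in replicate 3, with a pair difference of -1.31 on the log2 scale, compared with -0.39 and -0.22 in replicates 1 and 2. Rgs16 fell by 0.64 on the log2 scale (SE 0.16; edgeR, adjusted p = 0.0225), but by edgeR the value without vehicle replicate 3 was -0.31 (adjusted p = 0.0466) and without HC-HA/PTX3 replicate 3 -0.29 (adjusted p = 0.0579), neither of which met both thresholds. DESeq2 and ComBat-seq followed by limma did not call it either, at adjusted p-values of 0.187 and 0.0508.

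Rgs8 was at 10.4, 12.9 and 6.36 CPM with vehicle and at 5.63, 7.23 and 4.95 CPM with HC-HA/PTX3. Only vehicle replicate 3 fell below the highest treated culture, and replicate 3 was the lowest in both groups. Rgs8 fell by 0.70 on the log2 scale (SE 0.14; edgeR, adjusted p = 0.00723), lower in 3 of 3 pairs. Without vehicle replicate 1, vehicle replicate 2 or HC-HA/PTX3 replicate 1 it was not called, with log2 fold changes of -0.61, -0.63 and -0.61 and adjusted p-values of 0.0663, 0.0668 and 0.0645 from edgeR. The same held without the pair of replicate 1 (-0.60, adjusted p = 0.0714) or replicate 2 (-0.63, adjusted p = 0.0642) in edgeR.

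Rgs14, which binds Gi alpha subunits and Ras proteins, lies on chromosome 13 from 55369732 to 55384687 and had low counts. It was counted 90, 188 and 160 times with vehicle and 30, 116 and 76 times with HC-HA/PTX3, or 2.25, 4.38 and 2.86 CPM and 0.808, 3.06 and 1.93 CPM. Replicate 2 was highest in both groups and the groups overlapped. Rgs14 fell by 0.78 on the log2 scale (SE 0.21; edgeR, adjusted p = 0.0298), lower in 3 of 3 pairs. Without the cultures numbered 1 or those numbered 2 it was not called by edgeR, at -0.54 (adjusted p = 0.166) and -0.95 (adjusted p = 0.0708), and leaving out a single culture of replicate 1 or vehicle replicate 2 also ended the call.

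Rgs22, on chromosome 15 from 36009479 to 36140400, had the lowest level per kilobase of the called members. It was counted 32, 35 and 27 times with vehicle and 58, 42 and 64 times with HC-HA/PTX3, which corresponds to 0.799, 0.815 and 0.482 CPM and to 1.56, 1.11 and 1.63 CPM. All treated cultures were above all vehicle cultures. Its log2 fold change was 1.06 (SE 0.29, 95% interval 0.42 to 1.69; edgeR, adjusted p = 0.0288), a fold of 2.08. The call was lost in edgeR without the cultures numbered 1 (1.10, adjusted p = 0.0998) or those numbered 3 (0.73, adjusted p = 0.153), and likewise without any single culture of these numbers, and DESeq2 gave the gene no adjusted p-value.

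The other RGS genes gave a mixed picture. Rgs2, which acts mainly on Gq alpha subunits, was at 8.54, 7.82 and 8.66 CPM with vehicle and at 6.41, 6.46 and 5.74 CPM with HC-HA/PTX3, and the groups did not overlap. Its log2 fold change was -0.43 (SE 0.13; edgeR, adjusted p = 0.0387). Rgs17, a regulator of Gz and other Gi/o subunits, had a log2 fold change of -0.22 (SE 0.06; edgeR, adjusted p = 0.0382) with treated values of 121, 124 and 149 CPM beside vehicle values of 150.3, 145 and 162 CPM. Treated replicate 3 lay above vehicle replicate 2, although each treated culture was below its partner. Over the 18 RGS genes the fitted changes ran from -0.78 to 1.06 with a median of -0.02, 9 in each direction, and over the 8 on chromosome 1 the median was -0.24 with 0 called higher and 2 lower (beside 8.70 percent of all tested genes, 3.32 percent higher and 5.38 percent lower). The anchor Rgs7bp, which holds the Rgs7 group at the membrane, had a log2 fold change of 0.05 and Rgs9bp, with at least 10 counts in each library, of -0.26.

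Markers of some other cells were called lower in the same cultures. All 6 markers of dividing cells were called lower, with a median log2 fold change of -1.43. Mki67 was the highest of them in CPM, without correction for exon length. The summed level of the 6 markers was 769.8, 496 and 219 CPM with vehicle and 259, 254 and 40.3 CPM with HC-HA/PTX3. Of the 7 fibroblast markers, 4 were called lower, and of the 7 mural cell markers, Acta2 and Tagln, while 0 of the 10 neuronal and 0 of the 9 satellite glia markers were called by edgeR, DESeq2, limma-voom or ComBat-seq with limma (4 and 5 at an unadjusted p-value under 0.05 in edgeR, beside 33.2 percent of all tested genes). Of the 8 macrophage markers, led by Cd68, Cd163 was called lower at -1.98 by edgeR, and DESeq2, limma-voom and ComBat-seq with limma called 0, 1 and 3 of the list. Over all tested genes edgeR called 8.70 percent, with 5.38 percent lower, and the 3 other tools called 6.63, 8.58 and 11.6 percent. The macrophage share of 12.5% in edgeR rests on Cd163 alone. Of the 7 endothelial and of the 3 tested lymphocyte and granulocyte markers, edgeR called 0 and 0 (1 and 1 at an unadjusted p-value under 0.05). DESeq2 and limma-voom called 0 of either of these lists, and ComBat-seq with limma 0 and 1. The mural markers, led by Pdgfrb, summed to 412, 558 and 446 CPM with vehicle and to 353, 491 and 211 CPM with HC-HA/PTX3. Of the 7 markers of myelinating Schwann cells, 6 were fitted lower, with a median log2 fold change of -0.31. The part of these cells in the results for Rgs16, Rgs8, Rgs14 and Gng10 was not tested.

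Of the 10 adenylyl cyclases, which make cAMP from ATP, Adcy4 was called. It is a form that beta-gamma pairs stimulate together with Gs, and lies on chromosome 14 from 55769057 to 55784095. It was at 3.995, 5.89 and 7.55 CPM in the vehicle cultures and at 6.71, 9.02 and 9.57 CPM in the HC-HA/PTX3 cultures. Replicate 1 was lowest and replicate 3 highest in both groups, so the groups overlapped although each treated culture was above its partner. The log2 fold change was 0.56 (SE 0.13; edgeR, adjusted p = 0.0157), close to the threshold of 0.5. By edgeR it was 0.48 (adjusted p = 0.120) without the cultures numbered 1 and 0.53 (adjusted p = 0.0871) without those numbered 2, and it was not called without any single culture of these numbers.

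Adcy5 and Adcy6, the closely related cyclases that Gi alpha subunits and calcium inhibit, had log2 fold changes below 0 that did not reach the fold-change threshold. Adcy5, on chromosome 16 from 35154877 to 35305738, was at 44.0, 54.0 and 46.7 CPM with vehicle and at 37.3, 38.6 and 36.0 CPM with HC-HA/PTX3, and its groups did not overlap. The log2 fold change was -0.37 (SE 0.08; edgeR, adjusted p = 0.0092), and its share of the summed cyclase level per kilobase was 16.7% ± 1.60 and 13.5% ± 0.433 (SD, n = 3 each; two-sided exact permutation test, p = 0.1). Adcy6 was at 47.6, 51.8 and 37.6 CPM and at 37.2, 47.9 and 27.9 CPM, a log2 fold change of -0.30 (SE 0.08; edgeR, adjusted p = 0.0303). Its groups overlapped, with replicate 3 lowest in both.

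Adcy1, a cyclase stimulated by calcium and calmodulin, stood on the other side. It was at 30.5, 20.0 and 46.2 CPM with vehicle and at 42.5, 27.5 and 54.6 CPM with HC-HA/PTX3. Replicate 2 was lowest and replicate 3 highest in both groups, and the difference within pairs was smaller than that between replicates. The log2 fold change was 0.39 (SE 0.08; edgeR, adjusted p = 0.00878) with the replicate number in the model and 0.36 (adjusted p = 0.76) without it. The other calcium-stimulated forms, Adcy8 and Adcy3, had log2 fold changes of 0.25 and -0.21 (edgeR, adjusted p = 0.165 and 0.191), and that of Adcy3 was -0.11 without vehicle replicate 3 and -0.09 without its treated partner.

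The most abundant cyclases per kilobase, Adcy9 and Adcy2, were fitted at 0.00 (95% interval -0.15 to 0.16) and 0.02 (-0.16 to 0.19). Adcy7, which like Adcy2 and Adcy4 responds to beta-gamma pairs, was fitted at -0.16 (edgeR, adjusted p = 0.352), at -0.28 without vehicle replicate 2 and at -0.08 without vehicle replicate 3. The soluble, bicarbonate-activated Adcy10 was counted at least 13 times in each library and had a log2 fold change of -0.17 with a wide interval of -0.89 to 0.56, and was at -0.39 without vehicle replicate 3 and 0.17 without vehicle replicate 2. Over the 10 cyclases the median log2 fold change was -0.08, with 5 fitted higher and 5 lower.

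The GRKs and arrestins, which end receptor signalling, were not called. Grk6 was at 52.7, 62.6 and 63.3 CPM with vehicle and at 56.5, 64.2 and 63.4 CPM with HC-HA/PTX3, and Grk5 at 36.6, 36.4 and 29.7 CPM and at 39.9, 35.4 and 30.1 CPM. Same-numbered cultures lay close together for both genes, and their log2 fold changes were 0.05 (95% interval -0.10 to 0.19) and 0.03 (-0.14 to 0.20). Grk4 was fitted at 0.00 (-0.28 to 0.29). The rod kinase Grk1 was counted 9, 17 and 20 times with vehicle and 11, 14 and 36 times with HC-HA/PTX3, too few to resolve its log2 fold change of 0.66 (-0.20 to 1.51; edgeR, adjusted p = 0.265). Without vehicle replicate 3 the value for Grk1 was 0.11, and without vehicle replicate 2 it was 1.02. Among the kinases under their older symbols, Adrbk1 was at 128, 131 and 169 CPM and at 129.6, 140.1 and 165 CPM, a log2 fold change of 0.03. Adrbk2 was at 19.3, 20.5 and 30.6 CPM and at 25.9, 27.1 and 33.7 CPM, a log2 fold change of 0.32 (edgeR, adjusted p = 0.0329), under the fold-change threshold.

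Arrb1, at 671, 748 and 757 CPM with vehicle and at 728, 751 and 823 CPM with HC-HA/PTX3, had a log2 fold change of 0.08 (95% interval -0.06 to 0.22; edgeR, adjusted p = 0.403). Arrb2 was at 35.4, 35.7 and 38.2 CPM and at 38.6, 42.5 and 39.2 CPM, a log2 fold change of 0.14 (-0.03 to 0.31; edgeR, adjusted p = 0.238) that was 0.08 without vehicle replicate 2 and 0.07 without its treated partner. For both arrestins each treated culture exceeded its partner. The groups of Arrb2 did not overlap, by a margin of less than 1 CPM, and those of Arrb1 did.

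The variance of each member was divided between replicate number and treatment. The replicate number accounted for a median of 62.2% of the variance of a member's log2 CPM over the 6 cultures and the treatment for 20.0%, compared with 59.0% and 17.8% over all tested genes. The replicate number has 2 degrees of freedom and the treatment 1, so the first share would tend to be the larger one even without any effect. The shares by treatment were highest for Rgs2 (89.9%), Gnaz (84.2%), Adcy5 (79.8%), Gng10 (79.2%) and Rgs22 (77.2%). At the other end, 98.0% of the variance of Adcy9 and 97.9% of that of Rgs6 followed the replicate number.

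**Figure D5:**
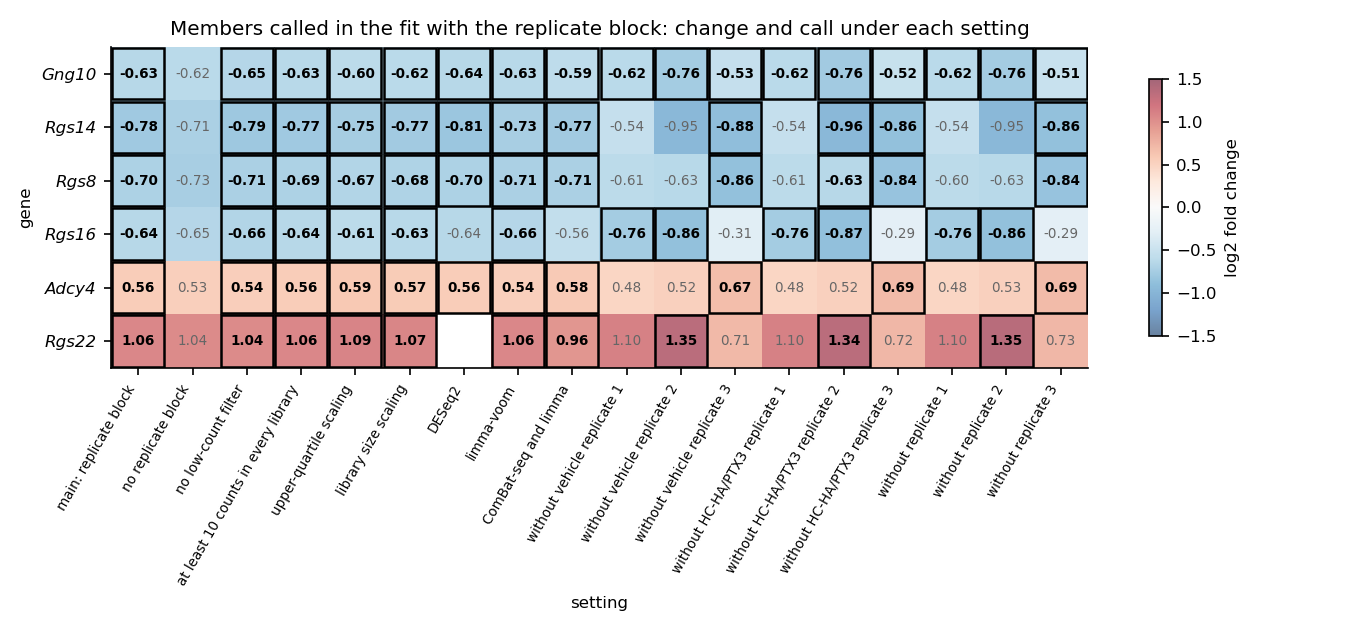
Log2 fold changes of the 6 called members under each setting of the analysis, coloured from blue (lower) to red (higher), with bold boxed values where the gene was called. Gng10 was called in every setting that used the replicate number, and the other 5 genes lost the call when particular cultures were left out; the blank cell is Rgs22, without an adjusted p-value in DESeq2.

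The grid of settings shows Gng10 as the call that least depended on single cultures. Its log2 fold change ran from -0.76 to -0.51 when a culture or a same-numbered pair was left out, with adjusted p-values from edgeR between 0.00109 and 0.0385. Rgs16 was smaller than the fold-change threshold without replicate 3, at -0.29. For Adcy4 without the cultures numbered 2 and Rgs22 without those numbered 1, the fold change stayed at 0.53 and 1.10 while the adjusted p-value rose past the limit with 2 pairs left. Direction was the same for the 6 genes in every setting that gave a value, and DESeq2 gave none for Rgs22. Each of the 8 members that passed the adjusted p-value alone lost it in edgeR in at least 1 setting with a culture left out. Without the cultures numbered 1, Gng10 and Rgs16 were the 2 members called, while 4.74 percent of all tested genes were called there.

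The receptors that feed this pathway were examined as a list. Of the opioid receptor genes, 3 of 4 were tested and 0 were called by edgeR, DESeq2, limma-voom or ComBat-seq with limma, with 0 at an unadjusted p-value under 0.05 in edgeR and a median log2 fold change of -0.17. All 3 tested genes were lower with HC-HA/PTX3 in 3 of 3 pairs, as were 5242 of the 18277 tested genes. Oprm1, the mu-opioid receptor, was at 34.5, 33.2 and 33.4 CPM with vehicle and at 34.2, 27.4 and 30.7 CPM with HC-HA/PTX3, a log2 fold change of -0.13 (95% interval -0.32 to 0.05; edgeR, adjusted p = 0.285). The delta receptor Oprd1 and the nociceptin receptor Oprl1 had log2 fold changes of -0.17 and -0.38 (edgeR, adjusted p = 0.352 and 0.204), and the kappa receptor Oprk1 was below the count filter. Of 27 other receptors that couple to Gi/o, 2 were called higher and 1 lower by edgeR (11.1%, beside 8.70 percent of all tested genes), with a median of 0.03. Of the same receptors, 13 had an unadjusted p-value under 0.05 in edgeR, and DESeq2, limma-voom and ComBat-seq with limma called 2, 3 and 6. Over all tested genes the unadjusted share was 33.2 percent, and the 3 other tools called 6.63, 8.58 and 11.6 percent. The serotonin receptor Htr1a and the muscarinic receptor Chrm4 were higher at log2 fold changes of 0.69 and 0.61 (edgeR, adjusted p = 0.0266 and 0.00459). The adrenergic receptor Adra2c, at 3.15, 1.82 and 3.98 CPM with vehicle and 1.40, 0.9497 and 1.88 CPM with HC-HA/PTX3, fell by 1.07 on the log2 scale (edgeR, adjusted p = 0.00384).

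Targets of the members were examined in the same way. Among 5 tested channel genes on which beta-gamma pairs act, 1 was called, the inwardly rectifying potassium channel gene Kcnj6, where 8.70 percent of all tested genes were called. Kcnj6 was at 1.998, 2.28 and 2.68 CPM with vehicle and at 4.55, 3.56 and 5.13 CPM with HC-HA/PTX3, a log2 fold change of 0.92 (edgeR, adjusted p = 0.00515), and the groups did not overlap. The related gene Kcnj9 was fitted in the other direction, at -0.73 (edgeR, adjusted p = 0.203). The calcium channel genes Cacna1a and Cacna1b were each fitted at 0.07. None of the 16 cAMP effector genes, the 16 cAMP phosphodiesterases or the 12 effectors of Gq and G12/13 was called by edgeR, DESeq2, limma-voom or ComBat-seq with limma, and 5, 7 and 4 of them had an unadjusted p-value under 0.05 in edgeR, beside 33.2 percent of all tested genes. By the adjusted p-value alone, 6 of the 16 phosphodiesterases passed in edgeR (37.5%), 3 in each direction, compared with 19.2 percent of all tested genes. The median log2 fold changes of the 3 lists were -0.05, -0.08 and -0.06. Of 25 other regulators of G proteins, Gprin2 was called higher at 0.56 and Axin2 lower at -0.75 (edgeR, adjusted p = 0.00459 and 0.00483), with a median of -0.00. These were 2 calls among 25 genes, beside 8.70 percent of all tested genes.

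Reads of overlapping genes could have been divided between them, since the strand setting of the counting is not stated. Of the 65 members, 13 overlapped another protein-coding gene of the annotation, 3 on the same strand and 11 on the opposite strand. Of the called members, Gng10 was the one with such an overlap. Gngt2 overlaps Abi3 on the opposite strand, which had a log2 fold change of -0.53 (edgeR, adjusted p = 0.0642), and Gng3 overlaps Bscl2, which had 0.38 (edgeR, adjusted p = 0.00414).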

How the data were processed

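The deposited values are raw counts, which the authors made by aligning read pairs of ribosomal RNA-depleted libraries to mm10 and counting reads per gene. The submitters' processing notes name HISAT2 and featureCounts of Subread, whereas the file headers name STAR; the strand setting is not given in the sources used here. Gene positions and exon lengths are from GENCODE M21 (mm10), matched by symbol, and start-site sequences from RefSeq (GRCm38.p6).

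Cultures were grouped by their labels, 3 per treatment, with 0 left out. In R 4.3.3, counts were filtered with filterByExpr, scaled by TMM and tested with the quasi-likelihood test of edgeR 4.0.16 over 18277 genes, with the replicate number as a block and Benjamini-Hochberg adjustment. The methods' model has a batch term, but neither they nor the labels give the batch of a culture, and taking the shared replicate numbers for it is an assumption on which all calls rest. The numbers were checked as pairs: deviations from group means correlated across genes at 0.726, 0.638 and 0.833 between same-numbered cultures and at -0.697 to 0.198 between others. All 3 pairs exceeded the limit of 0.1. So did vehicle replicate 2 with HC-HA/PTX3 replicate 1 (0.198) and vehicle replicate 1 with HC-HA/PTX3 replicate 2 (0.120). The limit therefore does not separate same-numbered cultures from others, and passing it does not show that the numbers are the batches. No 2 libraries of a group were duplicates (chi-square per degree of freedom 34.1 to 120.01). The parts of counting error and of the spread between cultures in the precision of each member were not separated.

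Alternatives were the fit without the block, no count filter, at least 10 counts in every library, upper-quartile and library-size scaling, DESeq2 1.42.0, limma-voom (limma 3.58.1), ComBat-seq (sva 3.50.0) on the replicate number followed by limma on log2 CPM with a prior count of 2, no fold-change threshold, and each culture or pair left out. The gene-wise tests of HC-HA/PTX3 against vehicle were tested on simulated data, in which 200 genes were changed. With changes of 0.7 on the log2 scale (17971 genes tested), true and false calls were 49 and 3 for edgeR with the block, 0 and 0 without it, 49 and 3 for limma-voom, 111 and 36 for DESeq2 and 116 and 134 for ComBat-seq with limma. With changes of 1.5 (17986 genes) they were 159 and 15, 106 and 0, 160 and 13, 168 and 57, and 178 and 171. In the 1 set of counts simulated per size, the false share was over 0.05 in every fit with the block or the batch step. The margin was widest for ComBat-seq with limma and then DESeq2. For edgeR with the block and limma-voom at changes of 0.7 it rested on 3 false calls each, which cannot be told from a share of 0.05. The permutation test and the motif counts were not simulated. Genes were named if called, in the Gi/o arm, a cyclase, GRK or arrestin, highest in level or extreme in fold change within a class, or called in a pathway list. Rgs2, Rgs17 and Gna13 were added for their adjusted p-values, and Gna12, Gnaq, Gnb5, the RGS anchors, Gng7, Rgs6, Adrbk1, Adrbk2 and the overlapping genes, after their values were seen. The members and lists were chosen with earlier results of these data known.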

Additional observations from a re-analysis of the deposited data

How the results depend on the processing

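The replicate block decided the calls. Of all genes, 1591 were called with the replicate block and 0 without it, and among the members 2 higher and 4 lower with it and 0 and 0 without it. With the block, no fold-change threshold gave 3505 genes and 5 higher and 9 lower members, and DESeq2 gave 1 higher member. With single cultures or same-numbered pairs left out, the counts ran from 878 to 2010 for all genes, from 0 to 1 for higher members and from 2 to 5 for lower members. Leaving out a culture also takes its partner out of the comparison within pairs, so both kinds of setting compare 2 pairs, and the treatment effect then rests on fewer cultures.

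For the 36 members followed through the settings, 540 values under other settings kept direction and status, called or not called, and 33 kept direction and lost the call. A further 2 gained it (Gngt2 after ComBat-seq, and Rgs2 at -0.51 without HC-HA/PTX3 replicate 2) and 31 had the opposite sign. Only 6 of the 36 were called in the main fit, so most of the 540 values were of members that stayed uncalled. The 33 losses all fell on the 6 called members. Gna12, Gna15, Gnaq, Gnb5, Gng7, Rgs6, Rgs7bp and Rgs9bp were not among the 36. The opposite signs occurred in members that were not called. They were Gnas at 0.00599 under upper-quartile scaling, Adcy2 at -0.00156 and Adcy9 at -0.0139 without the count filter, and Grk4 at -0.0107 without the block, -0.0124 without the count filter and -0.000399 with limma-voom. With cultures left out the ranges were -0.39 to 0.17 for Adcy10 (fitted at -0.17), -0.0178 to 0.0717 for Adcy2, -0.0169 to 0.0299 for Adcy9, -0.12 to 0.0584 for Gnai2, -0.00776 to 0.13 for Gnao1, -0.0640 to 0.0154 for Gnas, -0.0732 to 0.0521 for Grk4 and -0.0107 to 0.0677 for Grk5. Gnb1 and Grk6 kept their sign with cultures left out, at -0.0675 to -0.0144 and 0.0206 to 0.0845. The causes of these differences were not tested. At 37434266 to 54117547 counts per library, depth limits Gnat2, Gna15, Gnb3, Grk1, Rgs1, Rgs9bp and Adcy10, whose intervals are the widest.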
